A study of Mus musculus with 8 samples.

Results

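The anaphylatoxin and mediator receptors described here are 10 G protein-coupled receptor genes: C3ar1, C5ar1, Fpr1, Fpr2, Ptafr, Ltb4r1, Ptger3, Ptgdr2, Hrh2 and Hrh4. They were chosen by gene name among the 55487 genes in the files, and the level of a gene is the sum over its annotated transcripts in TPM, a share of all transcripts of a library that is scaled by transcript length. Of the 10 genes, 9 passed the filter for testing (1 TPM or more in no fewer than 2 libraries), and Ptgdr2 was listed at 0 in all 8 libraries.

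RNA was sequenced from 2 bone marrow populations of C57BL/6J mice, a basophil precursor population called pre-Baso and basophils, each sorted from control littermates and from mice in which a floxed Nfil3 gene had been removed. Nfil3 encodes a basic leucine zipper transcription factor, and the mice without it are called deficient. Both populations were gated as lineage-negative, CD34- ckit- CD200R3+ cells, and pre-Baso stained at a high and basophils at an intermediate level with MAR1, an antibody to the alpha chain of the high-affinity IgE receptor. Each of the 4 groups (control pre-Baso, deficient pre-Baso, control basophils, deficient basophils) held 2 libraries, biological duplicates in the words of the series' design text. The labels give control mice as wild type, and the Cre driver, the age and sex of the mice and the number of mice behind a library are not given in the sources used here.

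Nfil3 itself lay between 6.61 and 22.5 TPM in the 4 control libraries and between 0 and 1.32 TPM in the 4 deficient libraries (log2 difference -3.05, two-sided exact permutation p = 0.0286, the smallest that 4 against 4 libraries allow). Summed basophil markers (10 genes, led by Prss34, Mcpt8 and Fcer1a) lay between 20800 and 35000 TPM in pre-Baso and between 5050 and 10800 TPM in basophils. The sum hides a difference between genotypes in Mcpt8 and opposite directions of its genes between the populations. Mcpt8, a basophil granule protease, was 6244 and 7888 TPM in control pre-Baso and 969 and 1400 TPM in control basophils, but 4.08 and 6.04 TPM in deficient pre-Baso and 2.73 and 1.98 TPM in deficient basophils, and it was called lower in both populations (limma adjusted p = 5.56e-07 and 2.65e-06). Between control pre-Baso and basophils 1 of the 10 markers rose and 4 fell. In that comparison 12.6% of all genes tested rose and 22.6% were called in either direction. Of the 8 mast cell markers, 3 were listed at 0 in every library, and their sum did not pass 3.14 TPM. Markers of other granulocytes and of monocytes were present and were not equal between libraries, as given beside the receptor changes below. The libraries held 271.7 to 398.0 megabases assigned to transcripts. The number of bases behind a receptor differed widely: C3ar1 had between 21595 and 191350 assigned bases per library, Ltb4r1 between 14715 and 36516, and Fpr1 between 203 and 811.

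Complement activation releases the peptides C3a and C5a, the anaphylatoxins, which C3ar1 and C5ar1 detect on myeloid cells. Formyl peptides from bacteria and mitochondria, platelet-activating factor, leukotriene B4, prostaglandins and histamine signal through related receptors that couple to heterotrimeric G proteins. Basophils respond to several of these mediators with migration, granule release or, through receptors that raise or lower cyclic AMP, with a change in the strength of their response to IgE.

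The receptors differed widely in level, and their order differed between the populations. In control pre-Baso, Ltb4r1 was the highest at 38.2 ± 4.24 TPM (SD, n = 2), followed by Ptger3 at 13.2 ± 1.77 and C3ar1 at 12.2 ± 1.69, whose libraries overlapped with each other. C5ar1 at 6.79 ± 0.913 and Hrh4 at 5.10 ± 2.15 TPM also overlapped, and Hrh2, Fpr2, Ptafr and Fpr1 had means between 0.394 and 2.48 TPM. In control basophils C3ar1 came first at 93.9 ± 4.57 TPM and C5ar1 second at 40.2 ± 3.63, each with both libraries above those of every gene that followed. Ltb4r1 at 24.8 ± 4.67, Ptger3 at 21.3 ± 3.68 and Hrh4 at 17.3 ± 4.94 TPM formed a run in which each gene's libraries overlapped those of the next. Fpr2, Ptafr and Hrh2 had means between 3.80 and 4.53 TPM and overlapped in the same way, and Fpr1 was the lowest detected at 1.19 ± 0.275 TPM.

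**Figure D1:**
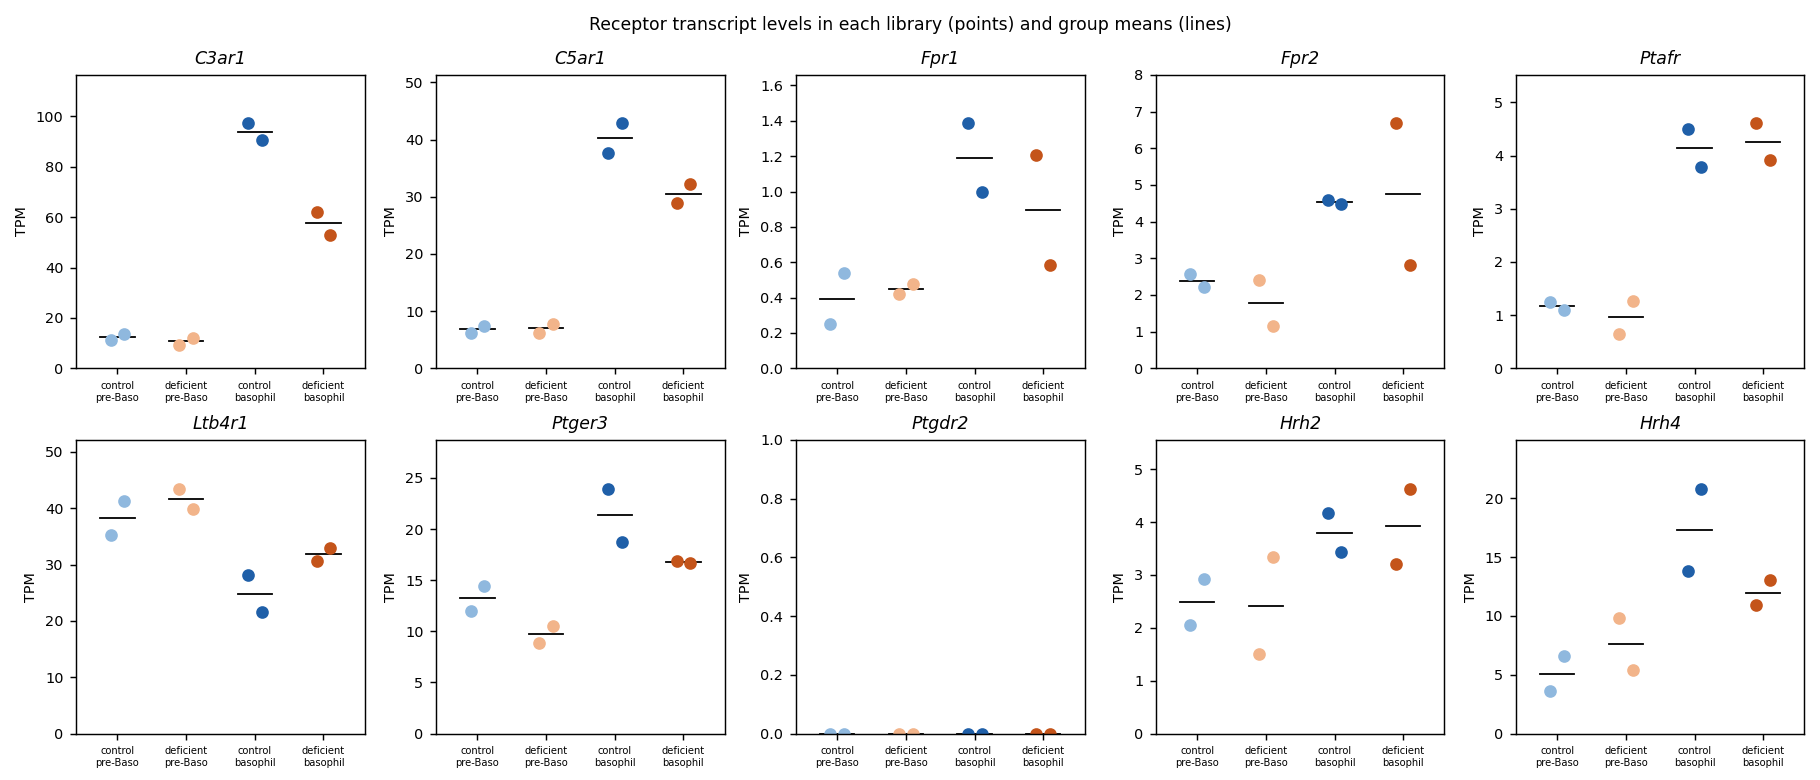
Level of each of the 10 receptor genes in TPM (y axis, from 0, a scale of its own per gene) in the 4 groups (x axis), with 1 point per library and a line at the group mean of 2 libraries. C3ar1 and C5ar1 libraries lie between 6.14 and 13.4 TPM in pre-Baso and between 28.9 and 97.2 TPM in basophils, while Ltb4r1 is higher in pre-Baso and Ptgdr2 is listed at 0 throughout.

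The comparison of control basophils with control pre-Baso asks how the receptors differ between the precursor and the mature cell. In control mice both complement peptide receptors were far higher in basophils, Ptafr, Hrh4 and Ptger3 were higher by smaller amounts, and Ltb4r1 was lower. Of the 9 tested genes, 5 rose and 1 fell at an adjusted p under 0.05 in limma, where 22.6% of all 12511 tested genes were called and 12.6% rose. The median log2 change of the 9 genes was 0.71, against 0.08 over all genes tested. Both basophil libraries lay above both pre-Baso libraries for 8 of the 10 genes and below for 1 (Ltb4r1), an arrangement found higher in 36.4% and lower in 26.3% of all genes tested. Fpr1, 1 of the 8, passed the filter only through basophils, which favours its place in this count and in the median of the 9. It reached 1 TPM only in the first control (1.385) and first deficient (1.207) basophil libraries.

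C3ar1 encodes the receptor for C3a. It measured 11.1 and 13.4 TPM in the control pre-Baso libraries and 97.2 and 90.7 TPM in the control basophil libraries. The groups lay far apart, and the replicates of each differed little. The mean was 7.67-fold higher in basophils, and the log2 change was 2.85 ± 0.18 (SE; limma adjusted p = 0.00023), which ranked 21 from the top among the 12511 genes. C5ar1 encodes the receptor for C5a that couples to G proteins. It measured 6.14 and 7.43 TPM in control pre-Baso and 37.7 and 42.8 TPM in control basophils. Its mean was 5.93-fold higher, with a log2 change of 2.41 ± 0.18 (adjusted p = 0.000372), which ranked 44 from the top. Both calls held in all 22 alternative analyses, with log2 changes from 2.52 to 2.98 for C3ar1 and from 1.94 to 2.55 for C5ar1. In bulk RNA, fewer cells that express a gene and less RNA per cell cannot be told apart.

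C3ar1 (ENSMUSG00000040552) lies at chr6:122847138-122856161 on the minus strand and C5ar1 (ENSMUSG00000049130) at chr7:16246743-16259540 on the minus strand in mm10. Of the 10 genes, 9 had a promoter window in the RefSeq table (GRCm38.p6), which runs from 250 bases before to 50 bases after the gene's start. The windows of the 4 receptors with the highest mean level are shown for the contrast between the pair that moved most (C3ar1, chr6:122856108-122856407, and C5ar1, chr7:16259289-16259588, both minus strand), the receptor that was lower in control basophils (Ltb4r1, chr14:55765712-55766011, plus strand) and Ptger3 (chr3:157566626-157566925, plus strand). Each runs 5′ to 3′, and capitals mark matches on either strand to any of the motifs named after the sequences, except the TATA box and the E-box, which were searched but not marked.
C3ar1: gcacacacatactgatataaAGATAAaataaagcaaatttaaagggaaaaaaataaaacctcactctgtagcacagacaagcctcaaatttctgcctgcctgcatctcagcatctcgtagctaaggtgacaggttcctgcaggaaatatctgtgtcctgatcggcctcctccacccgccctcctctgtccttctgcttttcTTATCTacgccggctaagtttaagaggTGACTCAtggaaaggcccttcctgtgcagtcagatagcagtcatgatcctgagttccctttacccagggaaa
C5ar1: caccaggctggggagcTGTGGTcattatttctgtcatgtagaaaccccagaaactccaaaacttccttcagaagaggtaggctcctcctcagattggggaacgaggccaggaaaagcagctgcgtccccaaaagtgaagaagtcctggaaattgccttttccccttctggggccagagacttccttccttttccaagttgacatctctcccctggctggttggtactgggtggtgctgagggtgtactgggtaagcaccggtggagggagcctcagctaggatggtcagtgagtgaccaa
Ltb4r1: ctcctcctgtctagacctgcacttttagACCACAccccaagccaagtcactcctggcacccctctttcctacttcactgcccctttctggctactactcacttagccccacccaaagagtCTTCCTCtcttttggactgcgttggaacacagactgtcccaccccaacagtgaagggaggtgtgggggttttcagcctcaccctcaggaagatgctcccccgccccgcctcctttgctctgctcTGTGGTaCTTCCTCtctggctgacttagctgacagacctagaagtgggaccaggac
Ptger3: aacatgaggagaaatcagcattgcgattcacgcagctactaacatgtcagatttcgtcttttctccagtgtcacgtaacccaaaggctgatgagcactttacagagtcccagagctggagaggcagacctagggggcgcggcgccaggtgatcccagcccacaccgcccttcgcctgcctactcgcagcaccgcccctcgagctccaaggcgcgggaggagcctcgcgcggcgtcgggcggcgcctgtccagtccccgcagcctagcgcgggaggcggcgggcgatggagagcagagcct

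The C3ar1 window held a GATA match in each orientation (AGATAA, found in 11.2% of all 32851 promoters of this length) and 1 AP-1 match (TGANTCA, 7.81%). C5ar1 held a RUNX match (TGTGGT, 16.8%). Ltb4r1 held RUNX and PU.1 matches (GAGGAAG, 13.6%), with 2 of each. None of the 9 windows held either searched form of the Nfil3 site (TTACGTAA, 0.119% of all promoters, and TTATGTAA, 0.938%) or the C/EBP motif (TTGCNNAA, 10.8%), which says only that these letters are not in these windows. The STAT motif (TTCNNNGAA, 8.3%) was found in Fpr2 alone of the 9. The TATA box (TATAAA, 13.6%) was found in 3 windows and the E-box (CANNTG, 72.3%) in 5. Ptger3 stood apart in base composition, with 64.0% GC and 27 CpG pairs, while C3ar1 had 46.0% and 5, C5ar1 53.7% and 3, and Ltb4r1 56.3% and 3, against medians of 52.7% and 7 over all promoters. The Ptger3 window held none of the marked motifs. A match is a run of letters and no measured site.

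Among the receptors for formyl peptides and platelet-activating factor, only Ptafr passed the test in control mice. Ptafr, the receptor for platelet-activating factor, measured 1.25 and 1.10 TPM in control pre-Baso and 4.50 and 3.78 TPM in control basophils. The 2 groups did not overlap, and the mean was 3.52-fold higher (log2 change 1.24 ± 0.21, adjusted p = 0.00511). Fpr1, the formyl peptide receptor best known from neutrophils, measured 0.25 and 0.54 TPM in control pre-Baso and 1.4 and 1.0 TPM in control basophils. Its libraries did not overlap, but the change of 0.65 ± 0.25 did not pass the test (adjusted p = 0.0996), and the level was close to the pseudocount of 1, where the scale understates changes. Fpr2, a formyl peptide receptor that also binds other peptides and lipids, measured 2.57 and 2.22 TPM in control pre-Baso and 4.59 and 4.47 TPM in control basophils (0.71 ± 0.34, adjusted p = 0.169). Fpr1 and Fpr2 lie 3883 bases apart on chromosome 17. Fpr2 overlaps Fpr3 on the same strand, and Fpr3 did not pass 0.124 TPM in any library.

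Ltb4r1, the high-affinity receptor for leukotriene B4, was the receptor that fell in control mice. It measured 35.2 and 41.2 TPM in control pre-Baso and 28.1 and 21.5 TPM in control basophils. The libraries did not overlap, and the basophil mean was 0.65 times that of pre-Baso (log2 change -0.61 ± 0.17, adjusted p = 0.0379). This call rested on all libraries together. It held in 1 of the 8 analyses that left out a library, the one without the first control basophil library, and the adjusted p was 0.0565 to 0.21 in the others, with the change between -0.79 and -0.42. Deposited coverage, which is not scaled for depth, was lower over both exons in basophils, whose control libraries also held fewer assigned megabases (271.7 and 297.5, against 343.7 and 398.0 in control pre-Baso). Exon 2, from 55767233 to 55768494 on chromosome 14, had 23.0 and 27.4 reads per base in control pre-Baso and 13.3 and 10.9 in control basophils. Exon 1 had 10.3 and 15.0 against 4.60 and 7.46.

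Of the tested prostaglandin and histamine receptors, Ptger3 and Hrh4 were called higher and Hrh2 was not called. Ptger3 encodes EP3, a prostaglandin E2 receptor that lowers cyclic AMP. It measured 12.0 and 14.5 TPM in control pre-Baso and 23.9 and 18.7 TPM in control basophils. Its mean was 1.61-fold higher (log2 change 0.65 ± 0.18, adjusted p = 0.0368), and the call was lost when the first (adjusted p = 0.169) or second (0.0576) control pre-Baso library was left out, and likewise for the first control basophil library (0.208) or either deficient basophil library (0.0561 and 0.0563). Hrh4, the histamine receptor found mainly on blood cells, measured 3.58 and 6.62 TPM in control pre-Baso and 13.8 and 20.8 TPM in control basophils. Its mean was 3.40-fold higher (1.61 ± 0.33, adjusted p = 0.0108). Leaving out the first library of control pre-Baso gave a change of 1.24 with an adjusted p of 0.0771. Hrh2, the histamine receptor that raises cyclic AMP, measured 2.05 and 2.92 TPM in control pre-Baso and 4.17 and 3.43 TPM in control basophils (0.47 ± 0.29, adjusted p = 0.284). The groups did not overlap, but the change did not pass the test. Hrh2 overlaps Gm16578 on the other strand (at most 0.453 TPM), and the quantification named no strand option, so their reads cannot be told apart. Ptgdr2 encodes the prostaglandin D2 receptor also called CRTH2. It overlaps Ccdc86 on the other strand (0.526 to 1.05 TPM), so the same limit holds for its listed 0.

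The 10 genes summed to 74.1 and 90.0 TPM in control pre-Baso and 215 and 207 TPM in control basophils. C3ar1 and C5ar1 made up most of the difference, with a joint level of 17.2 and 20.9 TPM against 134.9 and 133.5 TPM. Ltb4r1 held 47.6% and 45.8% of the summed receptor TPM in control pre-Baso and 13.1% and 10.4% in control basophils, while C3ar1 went from 14.9% in both to 45.1% and 43.8%.

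In deficient mice the same comparison gave 4 higher receptors and 0 lower of the 9 tested, where 6.79% of all genes tested rose and 4.11% fell. The median log2 change of the 9 was 0.73, against 0.10 over all genes. C3ar1 measured 9.25 and 12.1 TPM in deficient pre-Baso and 62.0 and 53.1 TPM in deficient basophils, a 5.38-fold higher mean (log2 change 2.33 ± 0.18, limma adjusted p = 0.00163). C5ar1 measured 6.23 and 7.72 TPM against 28.9 and 32.2 TPM, a 4.38-fold higher mean (1.99 ± 0.18, adjusted p = 0.0023). Neither gene's groups overlapped. Ptafr measured 0.65 and 1.27 TPM against 4.60 and 3.92 TPM, a 4.45-fold higher mean (1.44 ± 0.21, adjusted p = 0.00785). The Ptafr call ended without the first deficient pre-Baso (adjusted p = 0.0665) or the first deficient basophil library (0.0541).

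Ptger3 measured 8.90 and 10.5 TPM in deficient pre-Baso and 16.9 and 16.7 TPM in deficient basophils (0.73 ± 0.18, adjusted p = 0.0396). Its call ended without any 1 of these 4 libraries, with adjusted p-values from 0.0816 to 0.218. Hrh4 measured 9.79 and 5.45 TPM against 10.9 and 13.0 TPM, a change of 0.63 ± 0.33 that did not pass the test (adjusted p = 0.252). Ltb4r1 measured 43.4 and 39.8 TPM against 30.7 and 32.9 TPM (-0.38 ± 0.17, adjusted p = 0.199), so its groups did not overlap but the change was not called. Fpr2 measured 2.41 and 1.15 TPM against 6.68 and 2.83 TPM (1.0 ± 0.34, adjusted p = 0.0945), and its deficient basophil libraries differed from each other more than the control ones did. Fpr1 (0.37, adjusted p = 0.382) and Hrh2 (0.56, adjusted p = 0.246) were not called. Over the 10 genes, 7 had both deficient basophil libraries above both deficient pre-Baso libraries and 1 had them below, an arrangement found in 36.6% and 21.7% of all genes tested. Fpr1, which passed the filter only through basophils, is among the 7. Leaving out the first basophil library of each genotype, an alternative chosen after seeing the data, left 1 library per basophil group. The calls of receptors and of almost all other genes in deficient mice were lost in that fit. C3ar1 (2.22) and C5ar1 (2.06) had nearly the same changes as above.

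Averaged over both genotypes, 6 receptors rose (C3ar1, C5ar1, Ptafr, Hrh4, Ptger3 and Fpr2) and Ltb4r1 fell, where 20.4% of all genes tested rose and 13.3% fell. Fpr2, not called within either genotype, had an average log2 change of 0.85 ± 0.24 (adjusted p = 0.025). That call was lost on leaving out the first (adjusted p = 0.0658) or second (0.0799) library of control pre-Baso, the second deficient pre-Baso library (0.0783) or the first deficient basophil library (0.0556). Ltb4r1 changed by -0.49 ± 0.12 (adjusted p = 0.0165), a call that ended without the first deficient pre-Baso (0.0582), the second control basophil (0.056) or the first deficient basophil library (0.0558). Fpr1 (0.51, adjusted p = 0.0574) and Hrh2 (0.52, adjusted p = 0.0854) were not called.

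**Figure D2:**
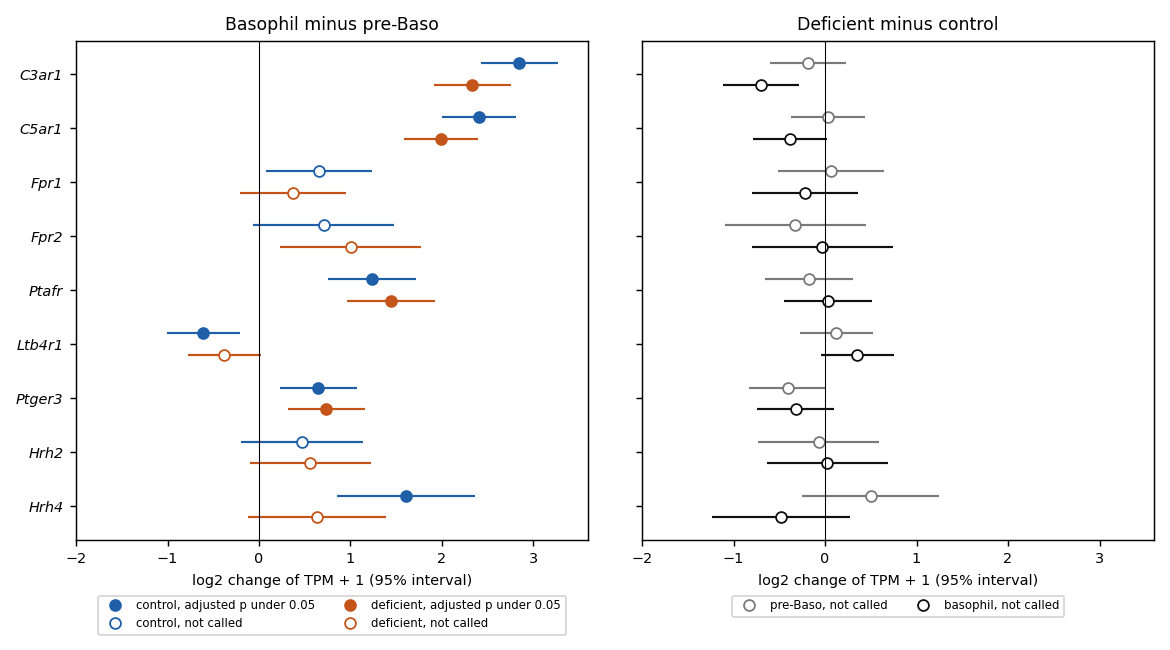
Log2 change of TPM + 1 (x axis) with its 95% interval for the 9 tested receptors (y axis), basophils minus pre-Baso on the left (blue control, orange deficient) and deficient minus control on the right (grey pre-Baso, black basophils). Filled points passed an adjusted p under 0.05: C3ar1 and C5ar1 have the 2 highest changes on the left in both genotypes, and no point on the right is filled.

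Markers of other cell types moved with the populations, and in part with single libraries. Summed neutrophil markers (11 genes, led by S100a8, S100a9 and Camp) were 799 to 1240 TPM in the 4 pre-Baso libraries and 1360 to 2550 TPM in the 4 basophil libraries. Of the 11, 7 rose in control mice, where 12.6% of all genes tested rose. All 11 had both control basophil libraries above both control pre-Baso libraries, as did 36.4% of all genes tested. Eosinophil markers (8 genes, led by Prg2, Prg3 and Ear2) summed to 2670 TPM in the first control basophil library and 194 TPM in the first deficient one, against 35.4 and 31.0 TPM in the second ones and 15.8 to 100.8 TPM in pre-Baso, and 2 of the 8 rose in control mice. Monocyte and macrophage markers (10 genes, led by Ly6c2, C1qb and C1qa) summed to 157 and 121 TPM in the first basophil libraries and to 30.7 and 39.4 TPM in the second, against 13.4 to 27.8 TPM in pre-Baso, and 2 of the 7 tested rose. No gene of these 3 lists was at 0 in every library. Erythroid markers (6 genes, led by Hbb-bs, Hba-a2 and Hba-a1) summed to 27.5 to 111 TPM in pre-Baso and 126 to 160 TPM in basophils, and 4 of the 4 tested rose in control mice.

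Neutrophils, eosinophils and monocytes can also express several of the 10 receptors. Between the 2 control basophil libraries the eosinophil and monocyte sums differed many-fold and the neutrophil sum was 2550 and 1450 TPM, while C3ar1 was 97.2 and 90.7 TPM and C5ar1 was 37.7 and 42.8 TPM. With both first basophil libraries left out, which left 1 library per basophil group, C3ar1 and C5ar1 stayed called higher in control mice. Ptafr (1.14), Hrh4 (1.88), Ptger3 (0.48) and Ltb4r1 (-0.79) were no longer called. Calls over all genes tested fell in that fit as well. The part of RNA from neutrophils, eosinophils, monocytes or erythroid cells in the receptor changes was not tested.

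**Figure D3:**
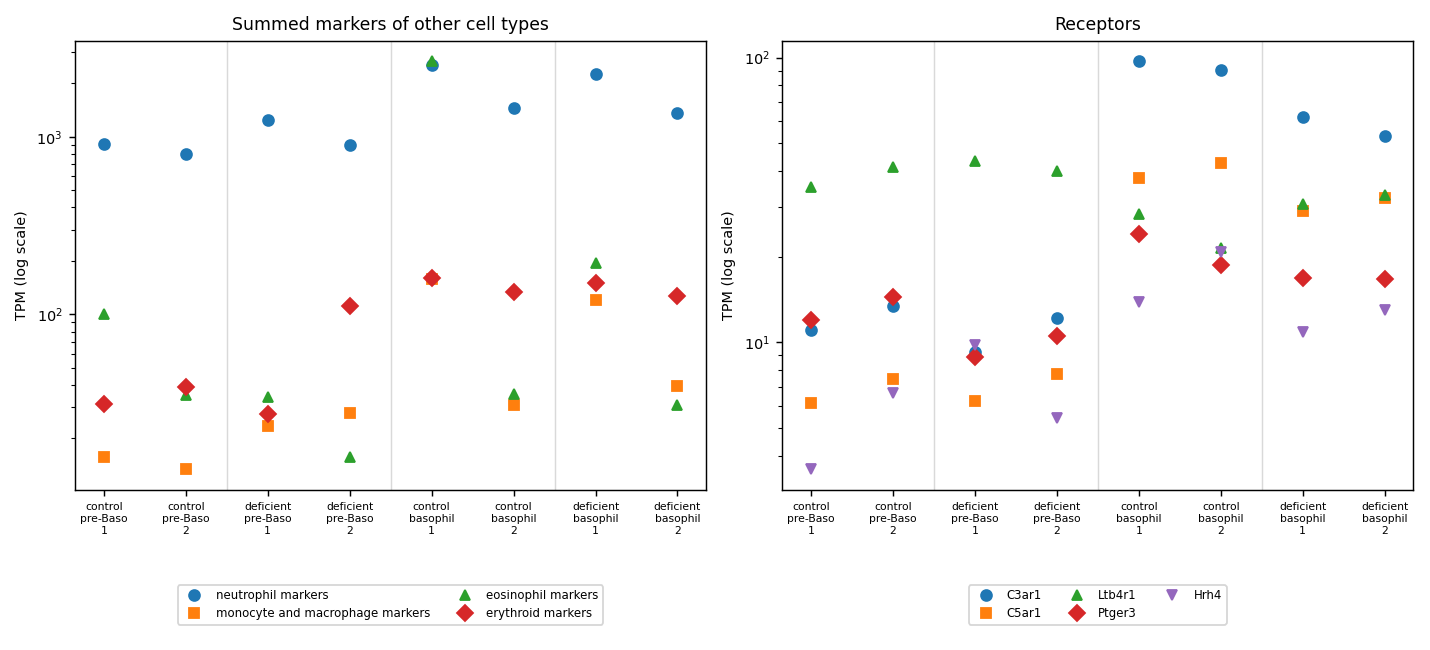
Summed TPM of 4 marker lists (left) and TPM of 5 receptors (right), both on log scales, in each of the 8 libraries (x axis). The eosinophil sum is 2670 TPM in the first and 35.4 TPM in the second control basophil library, while C3ar1 is 97.2 and 90.7 TPM in the same libraries.

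The comparison of genotypes asks which receptors differ where Nfil3 has been removed. No receptor passed the test in either population. In basophils 0 of the 9 tested receptors were called in limma, where 0.0560% of all genes tested were called (7 genes, with 1065 at an unadjusted p under 0.05). Of the 9, 1 (C3ar1) had an unadjusted p under 0.05. C3ar1 was 97.2 and 90.7 TPM in control and 62.0 and 53.1 TPM in deficient basophils, so both deficient libraries were lower. The mean was 0.612 times the control mean, with a log2 change of -0.70 ± 0.18 (95% interval -1.12 to -0.28, unadjusted p = 0.00461, adjusted p = 0.308). The adjusted p lay between 0.194 and 0.775 over 22 alternative analyses, and the change between -0.81 and -0.59. In rank it stood 252 from the bottom of the 12511 genes. Neutrophil marker sums overlapped between the genotypes in basophils (1450 to 2550 against 1360 to 2260 TPM). None of the 11 neutrophil markers was called, but only 1 had a change above 0, beside 47.9% of all genes tested, and their median was -0.15. Cxcr2 was the 1 marker of the 11 without overlap, at 46.39 and 54.05 TPM in control and 36.46 and 42.39 TPM in deficient basophils. The median change of the 7 tested monocyte and macrophage markers was 0.07. Eosinophil markers also moved in the direction of C3ar1: none of the 8 was called, but all 8 had a change below 0, with a median of -1.40. Of these, Siglecf was 10.3 and 8.97 TPM in control and 4.61 and 5.83 TPM in deficient basophils (adjusted p = 0.393), and Ccr3 was 4.9 and 4.8 TPM against 2.9 and 2.8 TPM (adjusted p = 0.368), both without overlap. For the other markers the first control basophil library stood far above the second. Prg2 was 2354 and 19.4 TPM in control and 152 and 18.9 TPM in deficient basophils. Between the second libraries Epx, Ear1 and Ear6 were higher in deficient basophils, Prg2 and Ear2 were lower and Prg3 was at 0 in both. The part of other cell types in these differences was not tested.

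C5ar1 was 37.7 and 42.8 TPM in control and 28.9 and 32.2 TPM in deficient basophils, 0.759 times the control mean (-0.39 ± 0.18, adjusted p = 0.604). Ptger3 (0.787 times, -0.32 ± 0.18, adjusted p = 0.693) and Hrh4 (0.691 times, -0.48 ± 0.33, adjusted p = 0.749) also had both deficient basophil libraries below both control ones. Ltb4r1 had both above, at 1.28 times the control mean (0.35 ± 0.17, adjusted p = 0.635). These 5 of the 10 genes had libraries that did not overlap, 4 lower and 1 higher, an arrangement found in 21.4% and 17.2% of all genes tested. Fpr1, Fpr2, Ptafr and Hrh2 overlapped, with log2 changes of -0.22, -0.03, 0.03 and 0.02. The median of the 9 was -0.22, against -0.01 over all genes.

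In pre-Baso 0 of the 9 receptors were called, where 0.0639% of all genes tested were (8 genes, with 548 at an unadjusted p under 0.05), and each receptor's adjusted p was 1. C3ar1 (-0.18) and C5ar1 (0.03) differed little between the genotypes there. Ptger3 was 12.0 and 14.5 TPM in control and 8.90 and 10.5 TPM in deficient pre-Baso, the 1 receptor whose libraries did not overlap (-0.41 ± 0.18, unadjusted p = 0.0568), where 19.3% of all genes had both deficient libraries lower and 11.2% higher. Ltb4r1 changed by 0.12 and Hrh4 by 0.50 ± 0.33. Averaged over both populations, 0 receptors were called, against 0.0879% of all genes tested (11 genes, with 931 at an unadjusted p under 0.05), and C3ar1 had the lowest change (-0.44 ± 0.13, adjusted p = 0.495).

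Whether the genotype effect differed between the populations was tested as an interaction. No gene was called (0 of 12511, 0.00%, with 689 at an unadjusted p under 0.05). For C3ar1 the difference of the log2 changes was -0.52 ± 0.26 (95% interval -1.11 to 0.08, adjusted p = 0.918). Its mean differed between basophils and pre-Baso by 81.7 TPM in control and 46.8 TPM in deficient mice. For C5ar1 the interaction was -0.42 ± 0.25 (adjusted p = 0.937), with 33.5 and 23.6 TPM. For Hrh4 it was -0.98 ± 0.47 (95% interval -2.04 to 0.09, adjusted p = 0.918), with 12.2 and 4.34 TPM, but with 1 fixed length per gene, an alternative described with the transcripts, it was -0.19 (adjusted p = 1). The 2 maturation comparisons and the genotype comparisons share libraries, so their values stand side by side here and are not independent of each other.

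The transcript shares of 5 genes (Ptger3, Hrh4, Fpr2, C5ar1 and Hrh2) differed between libraries. Ptger3 has 3 annotated transcripts, of 3148, 2097 and 3577 bases. Ptger3-201 took between 2.33% and 84.7% of the gene's TPM over the 8 libraries and Ptger3-202 between 4.72% and 84.2%, and replicates of 1 group differed as much: 26.6% and 78.8% for Ptger3-201 in control basophils. Ptger3-203, annotated as a retained intron, took 6.17% to 17.1%. Hrh4-201, of 1537 bases, took 84.0% to 91.0% in all 4 basophil libraries and 100%, 93.1%, 52.2% and 0% in the pre-Baso libraries, where the remainder went to Hrh4-203, of 520 bases. Fpr2-201 took 0% and 100% of Fpr2 in the control pre-Baso libraries, 59.3% in the first deficient basophil library and at most 9.95% in the others. In the second deficient basophil library C5ar1-201 took 32.4% of C5ar1 and Hrh2-202 took 29.0% of Hrh2, against at most 0.108% and 0% in the other libraries.

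The split of short reads between overlapping transcripts is an estimate, and it sets the length that a gene's TPM is divided by. Recomputed with 1 fixed length per gene, an alternative added after seeing the data, Hrh4 was 3.70 and 6.57 TPM in control pre-Baso, 6.95 and 1.91 TPM in deficient pre-Baso, 13.5 and 20.2 TPM in control basophils and 10.1 and 12.7 TPM in deficient basophils. On that scale Hrh4 changed by 1.36 between deficient pre-Baso and basophils (adjusted p = 0.076), more than 1.5 times the value above, and its difference between genotypes in pre-Baso turned from 0.50 to -0.31. Ptger3 on that scale was 8.02 and 10.6 TPM in control pre-Baso and 17.2 and 16.8 TPM in control basophils, with less spread in basophils and an adjusted p of 0.00758. C3ar1 and Ltb4r1, each with 1 annotated transcript, are not touched by such a split.

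**Figure D4:**
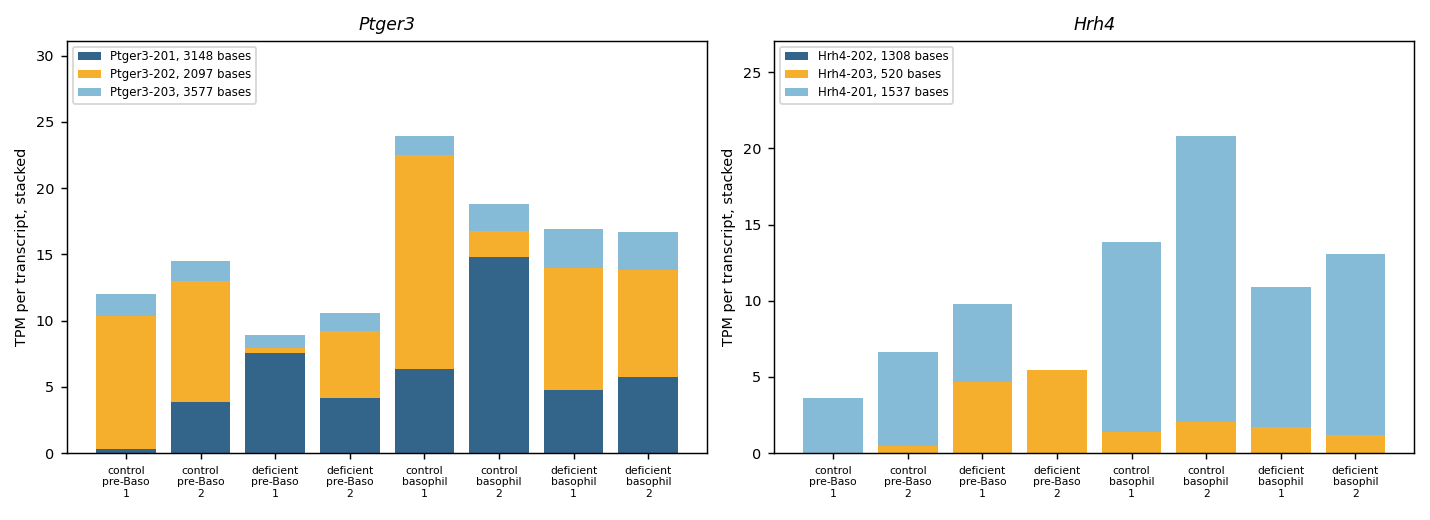
TPM of the annotated transcripts of Ptger3 (left) and Hrh4 (right), stacked, in each of the 8 libraries (x axis). The share of Ptger3-201 ranges from 2.33% to 84.7%, and Hrh4-203, of 520 bases, takes 47.8% and 100% of Hrh4 in the 2 deficient pre-Baso libraries and 9.02% to 16.0% in basophils.

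A list of 22 related receptor genes held other receptors for complement and formyl peptides, leukotrienes, prostanoids and histamine, and also the chemerin-binding receptors Cmklr1, Cmklr2 and Ccrl2 and the receptor Gpr35. Of the 22 genes 4 were tested (C5ar2, Ptger4, Ptgir and Cmklr1), and in control mice 2 of them rose and 0 fell, where 12.6% of all genes tested rose. C5ar2, the second C5a receptor, which does not couple to G proteins, measured 2.46 and 2.29 TPM in control pre-Baso and 9.21 and 7.11 TPM in control basophils (log2 change 1.43 ± 0.18, limma adjusted p = 0.00161). Ptger4 encodes EP4, a prostaglandin E2 receptor that raises cyclic AMP, and it measured 2.98 and 3.14 TPM against 9.52 and 8.89 TPM (1.33 ± 0.20, adjusted p = 0.00283). Both also rose in deficient mice (1.28 and 1.22). The deficient calls ended without the first deficient pre-Baso library for both genes and without the first deficient basophil library for Ptger4. Ptgir, the prostacyclin receptor, lay between 4.22 and 7.82 TPM in all libraries and was not called. Ptgdr, Tbxa2r, Hrh1, Hrh3 and Fpr-rs4 were listed at 0 in all 8 libraries.

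Receptor desensitisation genes rose in basophils where they were called. Of 20 genes 13 were tested, and 6 rose and 0 fell in control mice, where 12.6% of all genes tested rose and 22.6% were called in either direction, with a median log2 change of 0.61. Rgs2, a regulator that shortens G protein signals, measured 15.5 and 18.0 TPM in control pre-Baso and 65.2 and 52.8 TPM in control basophils (1.75 ± 0.20, adjusted p = 0.000974). Arrb2 (0.92 ± 0.15) and Arrb1 (0.85 ± 0.17), the arrestins that bind phosphorylated receptors, Grk2 (0.71 ± 0.15), a kinase that phosphorylates them, and the regulators Rgs14 (0.90 ± 0.16) and Rgs19 (0.86 ± 0.16) rose as well, with adjusted p-values from 0.00408 to 0.0127. Grk2 and either Arrb1 or Rgs19 were not called on leaving out the first control pre-Baso or the first control basophil library. Without both first basophil libraries only Rgs2 stayed called. Calls over all genes tested fell in these fits as well. In deficient mice, where 6.79% of all genes tested rose, 4 rose (Rgs2, Arrb1, Rgs14 and Arrb2). Calls were lost without any 1 deficient library, most without the first of either population, and calls over all genes tested fell in these fits too. Over 22 alternative analyses the changes ran from 1.07 to 1.52 for Rgs2 and from 0.58 to 1.39 for Arrb1. They ran from 0.60 to 0.92 for Rgs14 and from 0.62 to 0.82 for Arrb2.

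Of 33 genes for G protein subunits and their effectors, 24 were tested, with a median log2 change of 0.31 in control mice. Called in either direction were 7 of the 24, beside 22.6% of all genes tested, and 5 rose, beside 12.6%: Adcy7, an adenylate cyclase (1.22 ± 0.19, adjusted p = 0.00316), Gna15, a G alpha subunit of blood cells (0.98 ± 0.25), the G gamma subunits Gng2 (0.92 ± 0.19) and Gng5 (0.48 ± 0.15), and Pik3cg, the phosphoinositide kinase that G beta-gamma activates (0.69 ± 0.18). The 2 that fell were Gng12, a G gamma subunit that measured 110 and 113 TPM in control pre-Baso and 31.9 and 38.1 TPM in control basophils (-1.65 ± 0.26, adjusted p = 0.00391), and Gnas, the stimulatory G alpha subunit (-1.10, with 34.4 and 81.5 TPM in control basophils). Gnas was called in 8 of 22 alternative analyses and Gng5 in 9. The calls of Adcy7 and Gng12 held in all 22. Without any 1 control library fewer of these genes rose, and calls over all genes tested fell as well. Gnai2, the inhibitory G alpha subunit most abundant of these alpha subunits after Gnas in control pre-Baso, changed by 0.02 ± 0.18. In deficient mice 2 rose (Adcy7 and Gng2) and 0 fell, a share of higher genes close to the 6.79% of all genes tested. Without any 1 deficient library fewer rose, and calls over all genes tested fell as well.

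Among 21 genes that make or regulate the ligands, 13 were tested, and 3 rose and 2 fell in control mice, with a median of 0.16, where 12.6% of all genes tested rose and 22.6% were called in either direction. Hdc, which makes histamine, measured 70.6 and 95.2 TPM in control pre-Baso and 155 and 156 TPM in control basophils (0.91 ± 0.18, adjusted p = 0.00895). Alox5ap, the partner protein of 5-lipoxygenase, measured 450 and 575 TPM against 823 and 843 TPM (0.71 ± 0.13, adjusted p = 0.00738), while Alox5, 5-lipoxygenase itself, measured 74.9 and 89.0 TPM against 48.3 and 54.6 TPM (-0.66 ± 0.16, adjusted p = 0.0194). Cfp, properdin of the complement pathway, rose (1.41 ± 0.33, adjusted p = 0.0178), and Anxa1, whose product annexin A1 is a ligand of formyl peptide receptors, fell (-0.54 ± 0.16, adjusted p = 0.0444). The Anxa1 call held in 1 of 8 analyses that left out a library (the first of control pre-Baso). The Cfp call was lost on leaving out the first control pre-Baso or first control basophil library, and the Alox5 call without the second control pre-Baso or first control basophil library. Hdc, Alox5ap and Cfp lost their calls without both first basophil libraries, where calls over all genes tested fell as well. C5 (named Hc in the files) was listed at 0 in all 8 libraries and C3 did not pass 1.94 TPM. In deficient mice Hdc alone was called (0.78 ± 0.18, adjusted p = 0.0312), a call that ended without any 1 of the 4 deficient libraries. No gene of these 4 lists was called between genotypes in either population.

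**Figure D5:**
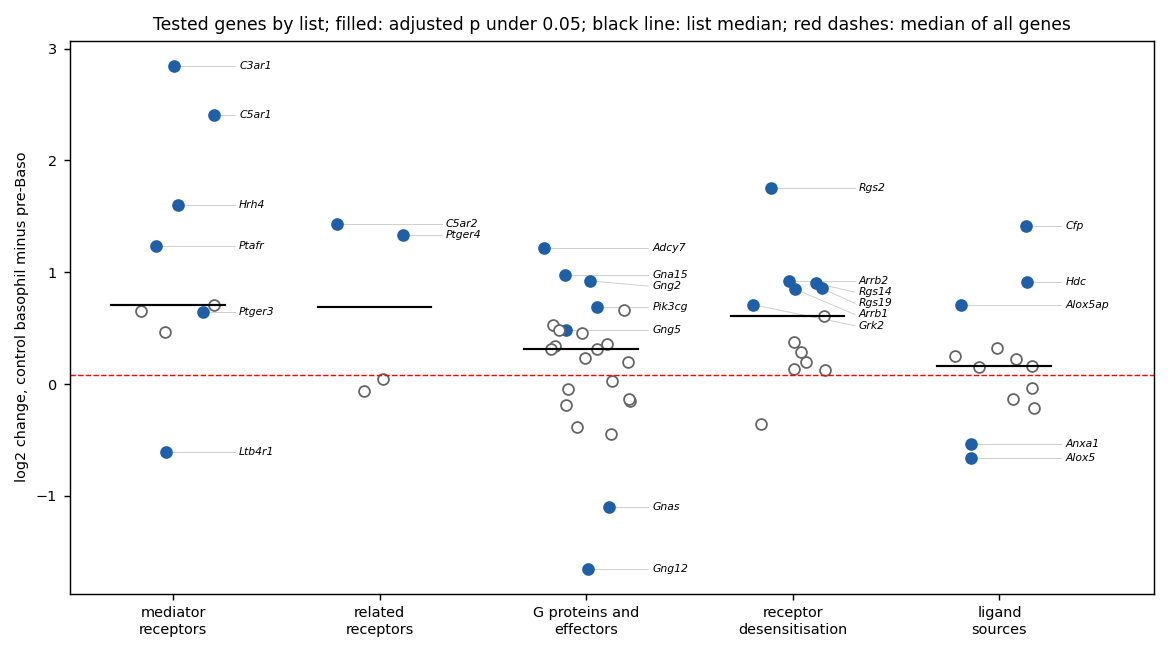
Log2 change between control pre-Baso and control basophils (y axis) of the tested genes in 5 lists (x axis): the 9 tested mediator receptors, 4 related receptors, 24 G protein and effector genes, 13 desensitisation genes and 13 ligand source genes. Filled points passed an adjusted p under 0.05, black lines are list medians and the red dashed line is the median of all genes at 0.08. Of the desensitisation genes 6 are filled and all 6 lie above that line.

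The genes most like a receptor were taken as those with the smallest root mean square difference of log2(TPM + 1), centred per gene, over the 8 libraries, among 4089 genes averaging 5 TPM or more. For C3ar1, whose own root mean square around its mean was 1.33, they were Nxpe4 (0.128), Gstm1 (0.139) and Adam8 (0.173). Gstm1 measured 22.2 and 21.7 TPM in control pre-Baso, 174 and 173 TPM in control basophils and 99.5 and 91.9 TPM in deficient basophils. For C5ar1 (1.11) they were L1cam (0.121), Ifitm1 (0.131) and Cxcr2 (0.151). Cxcr2 is one of the neutrophil markers used above. For Ltb4r1 (0.303) they were Rpl3 (0.058), Snrpd3 (0.064) and Ndufs5 (0.065), and for Ptger3 (0.408) Zc3hav1 (0.086), Zfyve27 (0.091) and Aff4 (0.092). With 8 libraries in 4 groups this measure mostly follows the group means.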

How the data were processed

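Reads of 8 libraries, prepared by the SMARTER mRNA-Seq kit per the labels' protocols, were aligned with HISAT2 to mm10 per the submitters' processing notes. StringTie 2.1.4 estimated annotated transcripts of Ensembl release 101, with no strand option, per the file headers. The deposited values are coverage, FPKM and TPM per transcript, per the file headers, with no counts. Protein-coding genes took 18.7% to 22.4% of the deposited TPM, so 1 TPM is a larger share of messenger RNA than of all transcripts.

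Gene TPM was the sum over transcripts, and the 12511 genes at 1 TPM or more in 2 libraries or more were tested. limma 3.58.1 in R 4.3.3 fitted log2(TPM + 1) with 1 mean per group over all 8 libraries (4 residual degrees of freedom) and a variance trend. P-values are two-sided and Benjamini-Hochberg adjusted within each of 7 contrasts, and genes were called under 0.05. The fit was tested on simulated data. P-values compare each change with the spread between these libraries, moderated by the variance trend over all genes tested. Intervals cover no error of transcript assignment.

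Members and lists were chosen with earlier results of these data known. All 10 receptors are named, as are called genes of 4 pathway lists (up to 6 per list by adjusted p), related receptors of at least 5 TPM, the 3 most abundant markers of each list given, and 3 genes most like each of the 4 highest receptors. Gnas, Gnai2, C3, C5, Siglecf, Ccr3, the receptors listed at 0, Cmklr1, Cmklr2, Ccrl2 and Gpr35 were named after their values were seen. Of 55487 genes, 45578 were named in the files, 9814 by a reference table and 95 not at all. Alternatives were other scalings, FPKM, pseudocounts, filters, moderation, a fit of the compared groups, a replicate block and leaving out libraries. Median-of-ratios scaling stood in for TMM, which needs counts.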

Additional observations from a re-analysis of the deposited data

How the results depend on the processing

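The 17 calls of receptors in the maturation comparisons gave 363 values under up to 22 alternatives: 312 stayed called in the same direction, 51 were no longer called and 0 reversed. The count in control mice (6) was 3 with no filter on low values, 3 to 5 without 1 library (lowest without the first control pre-Baso library) and 2 without both first basophil libraries. In deficient mice the count (4) was 2 to 4 without 1 library (lowest on leaving out the first deficient pre-Baso or first deficient basophil one) and 0 without both first basophil libraries. Averaged over genotypes it was 7, and 4 without both. All genes called in deficient mice went from 1363 to 298 with no filter, 562 with only the compared groups fitted and 19 on leaving out the first library of deficient pre-Baso, and in control mice from 2832 to 1516 with no filter. With no filter, Hrh4 (adjusted p = 0.0657), Ptger3 (0.0921) and Ltb4r1 (0.0929) were not called in control mice. Ltb4r1 (0.095) and Ptger3 (0.0837) were also not called there with only the compared groups fitted, nor was Ptger3 in deficient mice (0.0646). Without the second deficient basophil library the receptors called in deficient mice were not the same set: Ptger3 was lost and Fpr2 was called. In every fit that left out libraries, fewer of all genes tested were called as well, in each genotype and averaged over both. Whether receptors lost calls more or less often than other genes in those fits was not tested. The cause of the lost calls was not tested.

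Replicate numbers were not shown to pair the libraries: differences between replicates correlated between groups at -0.054 (pre-Baso) to 0.202 (basophils). With a replicate block the counts were 4 in control and 3 in deficient mice and 7 on average, and Ltb4r1 (adjusted p = 0.0565) and Ptger3 (0.0529 in control, 0.0565 in deficient mice) were not called. Of 440 values for 20 pathway genes called in control mice, 365 stayed called, 75 did not and 0 reversed. With 2 libraries per group, standard errors of receptor log2 changes between the populations of 1 genotype ran from 0.17 (Ltb4r1) to 0.34 (Fpr2).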
